A study of Mus musculus with 6 samples.

Results

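The genes described here are 35 named components of the unfolded protein response and the integrated stress response: chaperones and folding enzymes of the endoplasmic reticulum (ER), stress sensors with their transcription factors, genes of ER-associated degradation, and targets of the transcription factor ATF4. They were taken by symbol from a table of 18197 gene symbols. All 35 were present, and 34 of them were among the 16543 genes with enough counts to test. Chac1 was below that filter. The study sorted cancer-associated fibroblasts, stromal cells that build and remodel tumour matrix, from mammary tumours of C57BL/6 mice that carried the polyoma middle T oncogene (PyMT). All tumours were driven by PyMT and harvested at 16 to 20 weeks, and the labels tell the groups apart by genotype alone: 3 RNA-seq libraries carry the label WT and 3 the label mPGES-1 KO. mPGES-1, encoded by Ptges, is an enzyme that makes the lipid mediator prostaglandin E2. The title of the series concerns expression in these fibroblasts that depends on prostaglandin E2. The sources used here do not give the promoter of the oncogene, the form of the knockout allele, the surface markers of the sort or any pooling of animals.

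Proteins that enter the secretory pathway fold in the ER with the help of chaperones and enzymes that form disulfide bonds. When unfolded proteins accumulate, the membrane sensors IRE1, PERK and ATF6 signal to the nucleus: IRE1 splices the Xbp1 transcript, PERK phosphorylates the initiation factor eIF2 and so favours translation of ATF4, and ATF6 is cleaved to release a transcription factor. The resulting programme raises chaperones and ER-associated degradation, which carries misfolded proteins to the proteasome. The integrated stress response joins PERK to other eIF2 kinases that sense amino acid lack, haem lack or viral RNA. Fibroblasts and milk-producing epithelium both secrete large amounts of protein and rely on this machinery. Splicing of Xbp1, cleavage of ATF6 and phosphorylation are not measured by counts per gene.

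The best known regulatory element of this programme is the ER stress response element (ERSE), a CCAAT box set 9 bases from CCACG. Its letters, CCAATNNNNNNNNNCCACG, were searched on both strands in the 250 bases before each transcription start in RefSeq's promoters of GRCm38.p6. The element was found before 37 of 32851 promoters (0.113%) and before 9 of the 32 promoters that the table holds for 30 of the members (28.1%). The members were listed as components of this response, so the contrast with all promoters only describes the list and tests nothing. The 10 sites, in 9 of the 30 genes, are shown as a feature of some members that is not read from the counts. Each is read from CCAAT to CCACG with 5 bases on either side, and capitals mark the fixed letters.
Hspa5: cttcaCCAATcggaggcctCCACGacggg
Hsp90b1, far site: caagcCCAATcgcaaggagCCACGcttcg
Hsp90b1, near site: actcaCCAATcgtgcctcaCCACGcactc
Dnajc3: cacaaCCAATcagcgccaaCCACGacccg
Creld2: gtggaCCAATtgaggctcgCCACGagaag
Calr: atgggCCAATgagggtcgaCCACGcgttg
Canx: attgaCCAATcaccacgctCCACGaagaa
Pdia6: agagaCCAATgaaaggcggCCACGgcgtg
Syvn1: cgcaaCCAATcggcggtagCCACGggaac
Derl3: gctagCCAATggggaagtcCCACGgtaga
The windows lie at chr2:34772020-34772048 (plus strand) for Hspa5, chr10:86705633-86705661 (minus) and chr10:86705528-86705556 (plus) for Hsp90b1, chr14:118937822-118937850 (plus) for Dnajc3, chr15:88819515-88819543 (minus) for Creld2, chr8:84847070-84847098 (plus) for Calr, chr11:50325795-50325823 (minus) for Canx, chr12:17266486-17266514 (plus) for Pdia6, chr19:6046527-6046555 (plus) for Syvn1 and chr10:75893237-75893265 (minus) for Derl3. The match nearest to its start site, in Syvn1, begins 44 bases before it and leaves 25 bases between its end and that site. The farthest begins 212 bases before the start site, in Hsp90b1.

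The other full elements were found in fewer member promoters. ERSE-II (ATTGGNCCACG) was found before 10 promoters in all (0.0304%), and Herpud1 was the 1 member among them. The C/EBP-ATF response element (CARE, TGATGCAA), at which ATF4 binds, was found before 260 promoters (0.791%), with Herpud1 and Chac1 as the 2 members. The cAMP response element (CRE, TGACGTCA) was found before 508 promoters (1.55%), with Ppp1r15a as the 1 member. The core of the unfolded protein response element (TGACGTGG) was found before 185 promoters (0.563%) and before 0 of the 32 member promoters. CCACG alone, which is also part of ERSE and ERSE-II, was found before 9311 promoters (28.3%) and before 22 of 32 member promoters (68.8%). Each element was searched only in the spelling given here, so variants that differ by a letter were not counted, and a count of 0 does not cover them. A match is only a match of letters, and no binding was measured.
Herpud1, ERSE-II: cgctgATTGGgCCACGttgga
Herpud1, CARE: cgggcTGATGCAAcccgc
Chac1, CARE: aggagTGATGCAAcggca
Ppp1r15a, CRE: tccggTGACGTCAgcac
They lie at chr8:94386372-94386392 (plus) and chr8:94386312-94386329 (minus) for Herpud1, chr2:119351044-119351061 (minus) for Chac1 and chr7:45526269-45526285 (minus) for Ppp1r15a, with capitals for the fixed letters.

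Facts of all 6 libraries bear on every value below. Between 23013498 and 43648450 counts were recorded per library. The unit CPM is counts over library totals scaled by edgeR's TMM method, and a limit of 3 counts, which a count of 0 allows, stood for 0.0683 to 0.126 CPM. Reads carry no molecular identifiers, so that limit covers counting error only. Ptges itself was not lower under the mPGES-1 KO label: it reached 31.9, 19.2 and 27.9 CPM in WT replicates 1 to 3 and, in the same order, 186, 137 and 129 CPM in mPGES-1 KO, a log2 fold change of 2.51 ± 0.31 (SE, n = 3 per group, edgeR adjusted p = 0.0171). A count over the whole gene holds deleted and remaining parts alike, so this checks neither the deletion nor the labels, and every direction below is drawn from the labels. Markers of cell types other than fibroblasts differed with the labels as well. The 14 luminal epithelial markers, Epcam and Krt8 among them, summed to between 3844 and 5471 CPM in the WT libraries and between 17252 and 20055 CPM in the mPGES-1 KO libraries. The 6 milk protein genes found of 7 summed to between 3627 and 8678 CPM in WT and to 32369.5, 16774 and 18965 CPM in the mPGES-1 KO libraries, replicates 1 to 3. Nearly all of this was Csn3, at 8490, 3494 and 5070 CPM in WT and 32217, 16656 and 18793 CPM in mPGES-1 KO. Of the 6 genes, 5 had a positive log2 fold change, and Lalba had a negative one (-0.84). The groups overlapped for 4 of the 6, Lalba among them, and edgeR called 0. Only Csn3 and Csn1s2a were apart, and Csn1s2a was very low, with means of 0.0487 CPM in WT and 1.24 CPM in mPGES-1 KO. The 12 markers of pericytes and vascular smooth muscle summed to between 3099.5 and 7533 CPM in WT and between 184 and 335 CPM in mPGES-1 KO. The 10 fibroblast markers were present in every library, with sums of 9123 to 27093 CPM in WT and of 17646, 6308 and 9414 CPM in the 3 libraries of mPGES-1 KO. They did not move alike: 3 had a positive log2 fold change and 7 a negative one. Thy1 (means of 213 CPM in WT and 22.9 in mPGES-1 KO, edgeR adjusted p = 0.0184) and Col1a1 (3897 and 688 CPM, not called) were lower with groups apart. The groups overlapped for the other 8. The other lists had sums of 184 to 539.8 and 269 to 1121 CPM for 9 leukocyte markers, 47.7 to 139 and 98.0 to 229 CPM for 5 basal epithelial markers, and 15.2 to 91.3 and 11.99 to 81.8 CPM for 6 endothelial markers. The 7 mitochondrially encoded transcripts found of 10 reached 7504 to 27326 CPM in WT and 24935 to 40638 CPM in mPGES-1 KO, and the 10 genes of dissociation and early response reached 22483 to 32437 and 16712 to 22796 CPM. The part of these cells and transcripts in the results below was not tested, and in bulk RNA fewer cells of a type and less RNA per cell cannot be told apart.

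Most members stood higher under the mPGES-1 KO label, by less than 1 on the log2 scale at the median, and a single gene passed the test. The log2 fold change (mPGES-1 KO over WT) was positive for 31 of the 34 tested members and negative for Atf5, Syvn1 and Derl1. Its median was 0.64 and its range -1.60 to 2.65, whereas over all 16543 tested genes 8000 were positive (48.4%) and the median was -0.04. In edgeR's quasi-likelihood test, adjusted over all tested genes, 1 member was called higher (Ero1l) and 0 lower, against 456 calls over all genes (2.76%), of which 198 were higher (1.20%). A single call among 34 genes is near those shares and is not a result about the members. At an unadjusted p under 0.05 there were 10 members higher and 1 lower, where all genes gave 1416 higher (8.56%) and 1741 lower (10.5%). The 3 WT and the 3 mPGES-1 KO values did not overlap for 13 members, 12 of them higher and 1 (Syvn1) lower, where such separation was found for 12.2% of all tested genes in the higher and 15.7% in the lower direction. DESeq2 and limma-voom each called 7 members higher and 1 lower. Over the 16543 genes fitted, DESeq2 called 6.02% higher and 6.63% lower, and limma-voom 5.91% and 5.85%. The spread between libraries was wide, with a common biological coefficient of variation of 0.818, and the smallest log2 fold change called in any gene was 1.13 in size. Whether each library came from its own animal is not stated, and p-values then measure the spread among these libraries, which may be technical.

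**Figure D1:**
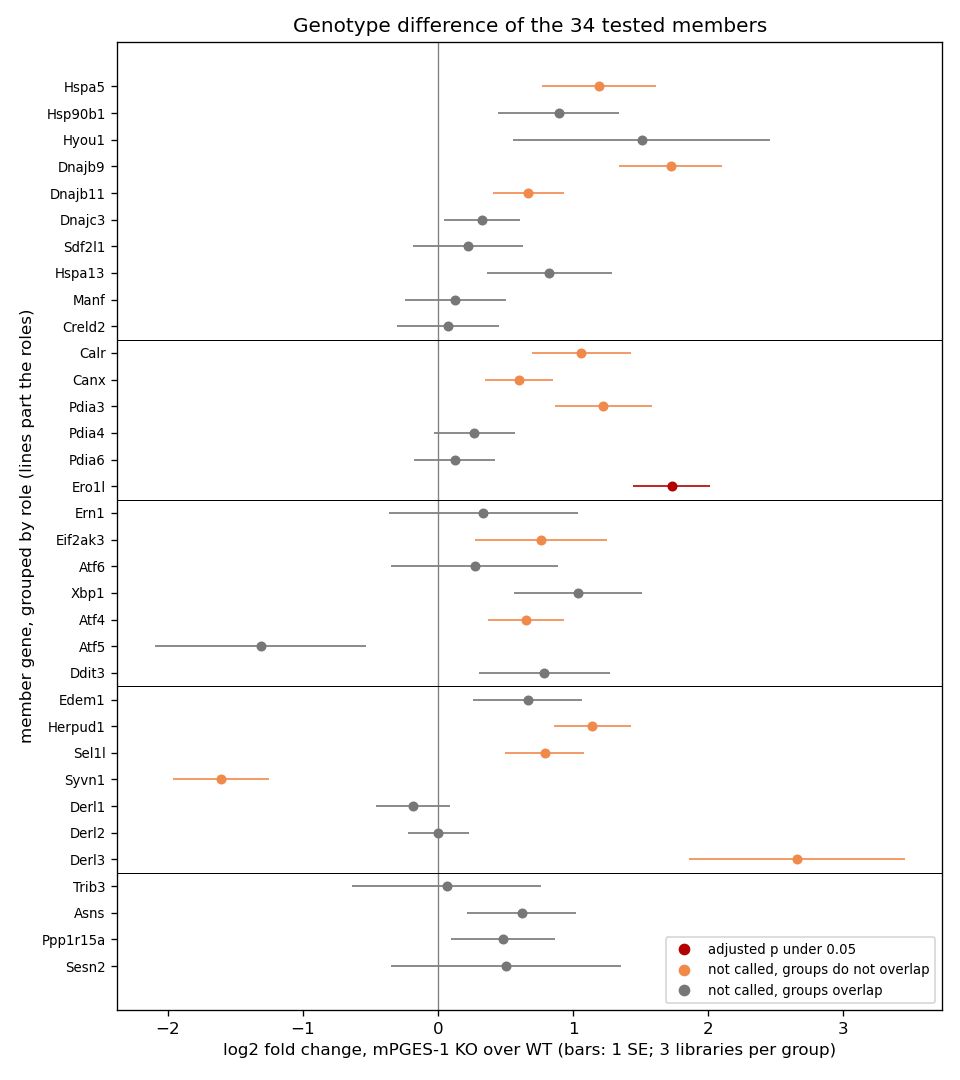
Log2 fold change (horizontal axis, mPGES-1 KO over WT) of the 34 tested members, 1 row per gene grouped by role, with bars of 1 SE from edgeR over 3 libraries per group. The points lie to the right of 0 for 31 genes, the 1 gene with an adjusted p under 0.05 is Ero1l, and Syvn1 is the 1 gene to the left of 0 whose groups do not overlap.

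The members together took 0.666%, 0.545% and 0.633% of all counts in WT replicates 1 to 3 and 1.26%, 0.979% and 0.951% in mPGES-1 KO replicates 1 to 3. All 3 mPGES-1 KO libraries were above the WT libraries in this share, and replicate 1 was the highest. The libraries did not contribute evenly. Of the 34 tested members, 20 were highest in mPGES-1 KO replicate 1 (58.8%), 4 in replicate 2 and 6 in replicate 3, while of 13668 genes with a count in every library 15.5% were highest in replicate 1. WT replicate 2 held the lowest value of 18 members, and of 1836 of the 13668 genes. Relative to the mean of the WT libraries, the median member stood 0.64, 0.53 and 0.34 higher on the log2 scale in mPGES-1 KO replicates 1, 2 and 3, where the median gene of the 13668 stood at -0.15, -0.14 and -0.10. mPGES-1 KO replicate 1 was also the library with the largest sum of milk protein transcripts, nearly all of it Csn3. Within its group, replicate 1 also held the largest sum of fibroblast markers. Without it the members' median was 0.58 and 26 members were positive, of 35 that then passed the filter.

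**Figure D2:**
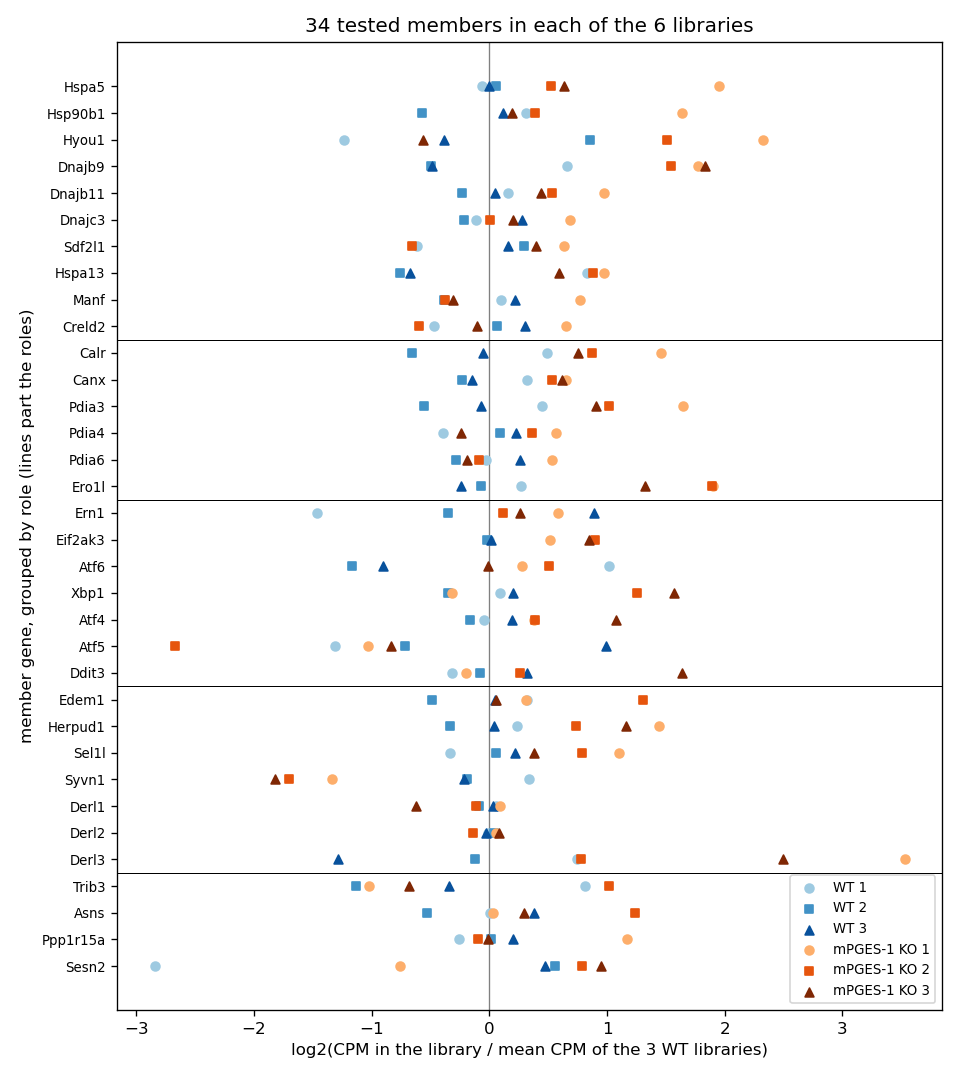
Each of the 34 tested members (rows, grouped by role) in each of the 6 libraries, as the log2 ratio of its CPM to the mean CPM of the 3 WT libraries (horizontal axis). Chaperones and folding enzymes, in the upper 2 groups, have mPGES-1 KO replicate 1 as their highest library in 15 of 16 rows, whereas 0 of the 7 sensors and transcription factors do.

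Among the ER chaperones and co-chaperones, all 10 had a positive log2 fold change, with a median of 0.75, but edgeR called 0 of them. At an unadjusted p under 0.05 there were 3 (Hspa5, Dnajb9 and Dnajb11), the same 3 whose groups did not overlap, and DESeq2 and limma-voom each called 2. The shares of all tested genes in the higher direction were 8.56% at that p and 12.2% for groups that did not overlap. DESeq2 called 6.02% of all genes higher and limma-voom 5.91%. Of the 10 genes, 9 were highest in mPGES-1 KO replicate 1, and without that library the median was 0.39. Hspa5 encodes BiP, the HSP70 chaperone of the ER that also holds the sensors inactive. It measured 736, 799 and 769 CPM in WT replicates 1 to 3 and 2978, 1101 and 1190.3 CPM in the mPGES-1 KO libraries in that order. The WT libraries lay close together, every mPGES-1 KO library was above them, and replicate 1 was far above the other two. The log2 fold change was 1.19 ± 0.42 (SE, adjusted p = 0.177), and it was 0.58 without mPGES-1 KO replicate 1. Hspa5 lies on the plus strand at chr2:34771970-34777547 in the GENCODE M21 annotation of GRCm38.

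Dnajb9, which encodes the BiP co-chaperone ERdj4, was similar in all 3 mPGES-1 KO libraries. It measured 54.9, 24.7 and 24.8 CPM in WT and 119, 101 and 124 CPM in mPGES-1 KO. They lay above all WT libraries, of which replicate 1 was the highest. This gave a log2 fold change of 1.72 ± 0.38 with an adjusted p = 0.0607, just short of the threshold, and the gene passed it in DESeq2 (0.000871), in limma-voom (0.00688), with the filter of 1 CPM (0.0420) and without WT replicate 1 (0.0250). Dnajb9 lies on the minus strand at chr12:44205559-44210326. Dnajb11, another BiP co-chaperone, measured 104, 79.4 and 96.2 CPM in WT and 183, 135 and 126 CPM in mPGES-1 KO, a log2 fold change of 0.67 ± 0.26 (adjusted p = 0.217).

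The remaining chaperones had overlapping groups. Hsp90b1, the HSP90 of the ER (GRP94), measured 527, 285 and 458 CPM in WT and 1321, 555 and 484 CPM in mPGES-1 KO. Only replicate 1 of the mPGES-1 KO libraries stood clearly apart, and the log2 fold change of 0.89 ± 0.45 was 0.30 without it. Of its exonic bases 15.7% are shared with other annotated genes, mainly a pseudogene on the opposite strand, and unstranded reads cannot tell these apart. Hyou1, the large nucleotide exchange factor of BiP, was low throughout, at 1.71, 7.29 and 3.07 CPM in WT and 20.2, 11.4 and 2.72 CPM in mPGES-1 KO. Its log2 fold change of 1.51 ± 0.95 was 2.32 without WT replicate 2 and 0.81 without mPGES-1 KO replicate 1. Hspa13, an HSP70-like protein of microsomes, measured 84.9, 28.2 and 29.8 CPM in WT and 93.7, 87.6 and 71.8 CPM in mPGES-1 KO, so that WT replicate 1 alone overlapped the other group. Its log2 fold change was 0.82 ± 0.46, and 1.57 without that library. Dnajc3 (p58IPK), an ER co-chaperone, had a log2 fold change of 0.33 ± 0.28. Sdf2l1, a partner of ERdj co-chaperones, and the secreted ER proteins Manf and Creld2 had log2 fold changes of 0.22 ± 0.41, 0.13 ± 0.37 and 0.07 ± 0.38. Without mPGES-1 KO replicate 1 these 3 values were -0.03, -0.34 and -0.33, so all 3 turned sign without it. Creld2 also turned sign without WT replicate 1 (-0.09), and Sdf2l1 and Creld2 did so with limma-voom.

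The lectin chaperones and the enzymes of oxidative folding held the 1 member that edgeR called. All 6 had a positive log2 fold change, with a median of 0.83, and all 6 were highest in mPGES-1 KO replicate 1. Of these, 4 were higher with no overlap of the groups, as were 12.2% of all tested genes. At an unadjusted p under 0.05 in edgeR there were also 4 higher, where all genes gave 8.56%. DESeq2 called 3 of the 6 higher and limma-voom 4, against 6.02% and 5.91% of all genes. Ero1l encodes the oxidase ERO1α, which passes electrons from protein disulfide isomerases to oxygen and so keeps disulfide formation running; it is known to respond to hypoxia as well as to ER stress. It measured 55.0, 43.4 and 38.5 CPM in WT replicates 1 to 3 and 170.3, 169 and 114 CPM in the mPGES-1 KO libraries in that order. Every mPGES-1 KO library was more than 2-fold above every WT library. Ero1l rose from 45.6 ± 8.45 to 151 ± 32.1 CPM (mean ± SD, n = 3 each), 3.31-fold, which is 1.73 ± 0.29 on the log2 scale (SE, adjusted p = 0.0295). The size was stable, between 1.62 and 1.91 over 13 alternatives, but the call was not. Leaving out WT replicate 2 (adjusted p = 0.128), WT replicate 3 (0.0929), mPGES-1 KO replicate 1 (0.0739), its replicate 2 (0.119) or its replicate 3 (0.0677) ended it, as did the replicate block (0.0896), and it was kept without WT replicate 1 (0.0354). Ero1l lies on the minus strand at chr14:45283087-45318771 in 18 exonic blocks, of which 0.0% is shared with another annotated gene, and none of the 5 elements longer than CCACG was found before its start.

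Pdia3 (ERp57), the disulfide isomerase that works with calreticulin and calnexin on glycoproteins, measured 794, 397 and 556 CPM in WT and 1817, 1176 and 1089.8 CPM in mPGES-1 KO. Calr, the soluble lectin chaperone calreticulin, measured 478, 216 and 328 CPM in WT and 936, 624 and 573 CPM in mPGES-1 KO. Canx, its membrane-bound relative calnexin, measured 313, 214 and 227 CPM in WT and 396, 364 and 385 CPM in mPGES-1 KO. In all 3 genes of this glycoprotein folding cycle the groups were apart, with WT replicate 1 the highest of its group and replicate 2 the lowest. The log2 fold changes were 1.23 ± 0.36 for Pdia3, 1.06 ± 0.36 for Calr and 0.60 ± 0.25 for Canx. With edgeR adjusted p of 0.116, 0.166 and 0.246, none of the 3 passed in edgeR. DESeq2 and limma-voom both called Pdia3 and Calr, and limma-voom alone called Canx. The isomerases Pdia4 and Pdia6, which act with BiP, had smaller values with overlapping groups, 0.27 ± 0.30 and 0.12 ± 0.30 on the log2 scale. Pdia6 was at -0.13 without mPGES-1 KO replicate 1. The difference between Pdia3 and these isomerases was not tested.

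The sensors and transcription factors showed another order of libraries. The log2 fold change was positive for 6 of these 7 genes and its median was 0.65 (0.38 without mPGES-1 KO replicate 3). By edgeR 0 were called, 0 had an unadjusted p under 0.05, and DESeq2 and limma-voom each called 0. None was highest in mPGES-1 KO replicate 1. Eif2ak3, which encodes the eIF2 kinase PERK, measured 8.81, 8.70 and 8.92 CPM in WT and 12.6, 16.4 and 15.9 CPM in mPGES-1 KO. The groups were apart and the WT values almost equal, but the log2 fold change of 0.76 ± 0.49 did not pass (adjusted p = 0.468). Of its exonic bases 8.0% are shared with a gene annotated on the opposite strand. Ern1, which encodes the kinase and endonuclease IRE1α, measured 3.48, 7.55 and 17.8 CPM in WT and 14.4, 10.4 and 11.5 CPM in mPGES-1 KO. Atf6 measured 44.3, 9.79 and 11.7 CPM in WT and 26.7, 31.1 and 21.7 CPM in mPGES-1 KO. For both of these sensors the WT libraries spanned the whole range of the other group, and the log2 fold changes were 0.33 ± 0.70 and 0.27 ± 0.62. Without the highest WT library of each they were 1.13 for Ern1 (WT replicate 3) and 1.33 for Atf6 (WT replicate 1).

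Xbp1, the transcription factor gene whose transcript IRE1 splices, had the highest level per length of all members, at 300.9 CPM per kilobase of exon in WT and 616.9 in mPGES-1 KO. It measured 1043, 768 and 1121 CPM in WT replicates 1 to 3 and 783, 2334 and 2894 CPM in the mPGES-1 KO libraries in that order. Replicate 1 of the mPGES-1 KO libraries lay within the WT range, and replicates 2 and 3 lay above it, whereas replicate 1 was the highest of the group for Hspa5. Over all libraries the log2 fold change was 1.04 ± 0.48 (adjusted p = 0.292). It was 1.43 without mPGES-1 KO replicate 1. Xbp1 is also a marker of plasma cells. Of the 5 other plasma cell markers in the table, Sdc1, which epithelium also makes, measured 119.7, 204 and 366 CPM in WT and 56.3, 111 and 54.1 CPM in mPGES-1 KO. The remaining 4 together summed to 10.2, 21.0 and 18.2 CPM in WT and to 20.04, 19.3 and 33.7 CPM in mPGES-1 KO. Of the defining markers, Jchain had 0 counts in replicates 1 and 2 of WT and replicates 2 and 3 of mPGES-1 KO, and Mzb1 was at 0 in WT replicates 1 and 3 and in mPGES-1 KO replicate 1 and reached 1.61 CPM at most. The part of plasma cells in the Xbp1 values was not tested. Xbp1 lies on the plus strand at chr11:5520659-5525893.

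Atf4, the transcription factor translated when eIF2 is phosphorylated, measured 206, 189.6 and 242 CPM in WT and 276, 278 and 448 CPM in mPGES-1 KO. The groups were apart, with mPGES-1 KO replicate 3 the highest, and the log2 fold change was 0.65 ± 0.28 (adjusted p = 0.267). Ddit3, which encodes the pro-apoptotic factor CHOP downstream of ATF4, measured 47.5, 56.1 and 74.0 CPM in WT and 51.6, 70.7 and 184 CPM in mPGES-1 KO. Apart from mPGES-1 KO replicate 3 all of its values lay in the same range, and the log2 fold change of 0.79 ± 0.49 was 0.05 without that library. Atf5, a related factor induced with CHOP, was the 1 negative gene of this group. Its 7.95, 12 and 39.2 CPM in WT and 9.62, 3.10 and 11.1 CPM in mPGES-1 KO overlapped, with WT replicate 3 far above the rest, and the log2 fold change of -1.31 ± 0.78 was -0.33 without that library.

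**Figure D3:**
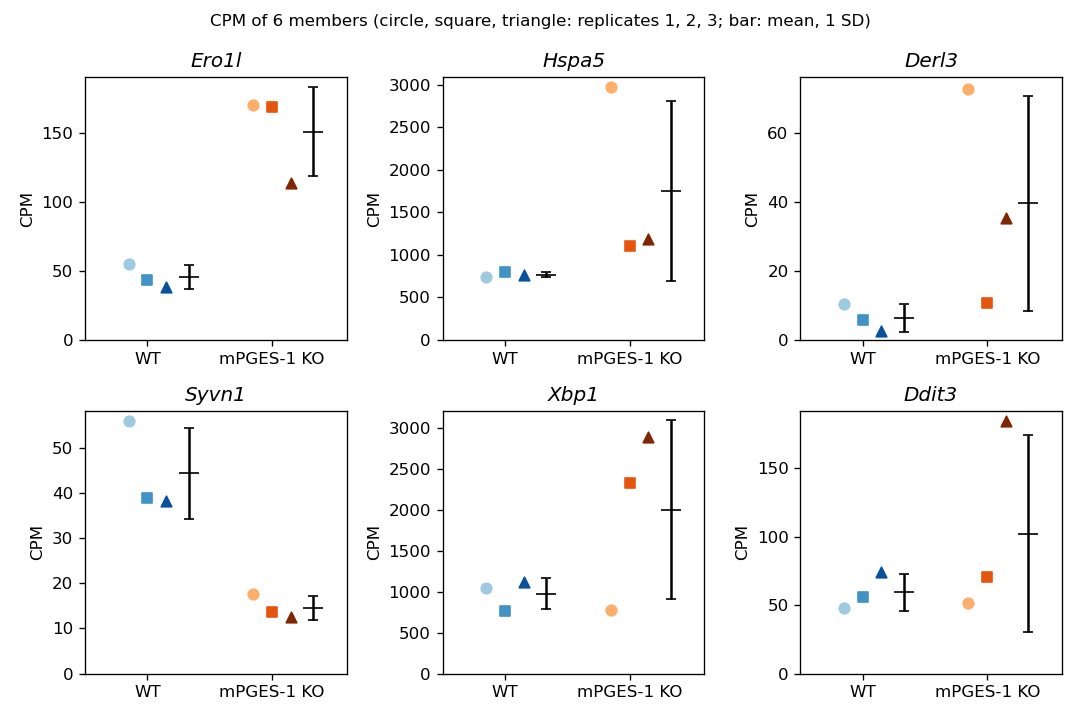
CPM (vertical axis, linear from 0) of Ero1l, Hspa5, Derl3, Syvn1, Xbp1 and Ddit3 in the 3 WT and 3 mPGES-1 KO libraries, as 1 point per library beside the mean and 1 SD. Ero1l is apart between the groups and spreads more widely in mPGES-1 KO, Hspa5 reaches 2978 CPM in mPGES-1 KO replicate 1, Xbp1 is at 783 CPM in the same library, and Syvn1 is lower in all 3 mPGES-1 KO libraries.

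The genes of ER-associated degradation had values of both signs. The log2 fold change was positive for 5 of 7, with a median of 0.66 (0.23 without mPGES-1 KO replicate 2), and 3 were higher with no overlap and 1 lower. By edgeR 0 were called, against 4 at an unadjusted p under 0.05 (3 higher, 1 lower), while DESeq2 called 2 higher and 1 lower and limma-voom 1 higher and 1 lower. Of all tested genes, 12.2% were higher and 15.7% lower with no overlap, and 8.56% and 10.5% at the unadjusted p. DESeq2 called 6.02% of all genes higher and 6.63% lower, and limma-voom 5.91% and 5.85%. Herpud1, a membrane protein that assembles the degradation complex and a standard readout of ER stress, measured 159, 107 and 139 CPM in WT and 367, 225 and 302 CPM in mPGES-1 KO. Its groups were well apart, and the log2 fold change was 1.14 ± 0.29 (adjusted p = 0.0827). Its call was made by DESeq2 (0.00549) and limma-voom (0.0259), and it is the member whose promoter held both ERSE-II and CARE. Herpud1 lies on the plus strand at chr8:94386438-94395377. Sel1l, the scaffold of the ligase complex, measured 61.7, 81.3 and 91.0 CPM in WT and 168, 135 and 102 CPM in mPGES-1 KO, apart, with a log2 fold change of 0.79 ± 0.29 (adjusted p = 0.191).

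Syvn1 encodes HRD1, the ubiquitin ligase that Sel1l stabilises, and it stood against the other members. It measured 56.1, 38.8 and 38.3 CPM in WT and 17.6, 13.7 and 12.6 CPM in mPGES-1 KO. All 3 mPGES-1 KO libraries were far below every WT library. With means of 44.4 ± 10.1 and 14.6 ± 2.64 CPM (SD, n = 3 each), the log2 fold change was -1.60 ± 0.35, at an adjusted p = 0.0589 in edgeR. It passed in DESeq2 (0.00238) and limma-voom (0.0320), and its value stayed between -1.75 and -1.37 over the 13 alternatives. The partners of 1 complex, Sel1l and Syvn1, therefore had opposite signs with both pairs of groups apart, although neither gene passed in edgeR and the difference between them was not tested. Syvn1 lies on the plus strand at chr19:6046576-6053712, and 1.9% of its exonic bases are shared with Mrpl49 on the opposite strand.

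Derl3, a derlin of the channel through which misfolded proteins leave the ER, known from secretory cells under ER stress, had the largest log2 fold change of the members at low counts. It measured 10.5, 5.79 and 2.58 CPM in WT and 72.8, 10.8 and 35.5 CPM in mPGES-1 KO. The groups were only just apart, since mPGES-1 KO replicate 2 was barely above WT replicate 1, and the mPGES-1 KO libraries differed widely among themselves. Its log2 fold change of 2.65 ± 0.80 (adjusted p = 0.122) was 1.88 when mPGES-1 KO replicate 1 was left out and 3.26 without WT replicate 1. Its relatives had values nearer 0: Derl1 measured 85.5, 77.5 and 84.3 CPM in WT and 87.7, 76.2 and 53.4 CPM in mPGES-1 KO, and Derl2 measured 115, 119.7 and 114 CPM in WT and 121, 106 and 123 CPM in mPGES-1 KO. Their log2 fold changes were -0.19 ± 0.28 and 0.00 ± 0.22, the latter with the smallest SE of all members. Edem1, a lectin that hands misfolded glycoproteins to degradation, measured 65.7, 37.6 and 54.5 CPM in WT and 65.2, 130.2 and 54.7 CPM in mPGES-1 KO. A single library, mPGES-1 KO replicate 2, carried its log2 fold change of 0.66 ± 0.40, which was 0.23 without it.

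Derl3 and Syvn1, the members with the largest positive and the largest negative log2 fold change, both carried an ERSE, so their whole searched windows are shown with that of Herpud1. Each is the plus strand of GRCm38.p6 as RefSeq gives it, 250 bases that end at the base before the start site, and capitals mark the whole element, its unfixed letters included.
Derl3, chr10:75893148-75893397: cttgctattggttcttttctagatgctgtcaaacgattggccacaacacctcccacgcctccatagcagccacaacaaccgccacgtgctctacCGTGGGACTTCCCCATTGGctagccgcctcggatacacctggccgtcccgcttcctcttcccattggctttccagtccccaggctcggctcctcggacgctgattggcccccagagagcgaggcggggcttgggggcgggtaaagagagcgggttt
Syvn1, chr19:6046326-6046575: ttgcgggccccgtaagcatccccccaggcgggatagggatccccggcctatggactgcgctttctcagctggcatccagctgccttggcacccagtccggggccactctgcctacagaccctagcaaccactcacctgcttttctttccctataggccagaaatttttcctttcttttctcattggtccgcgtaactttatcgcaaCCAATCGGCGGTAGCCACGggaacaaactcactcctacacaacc
Herpud1, chr8:94386179-94386428: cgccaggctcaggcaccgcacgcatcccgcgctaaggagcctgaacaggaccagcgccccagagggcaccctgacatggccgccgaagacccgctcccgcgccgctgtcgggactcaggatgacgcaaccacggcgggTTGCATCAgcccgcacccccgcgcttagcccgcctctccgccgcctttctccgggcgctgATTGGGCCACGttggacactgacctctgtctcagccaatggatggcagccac
The members with the element had values of both signs. The 9 members with an ERSE had log2 fold changes from -1.60 to 2.65 with a median of 0.60, 8 of them positive, and 4 were higher and 1 lower with no overlap. The 20 tested members whose promoter held no ERSE had a median of 0.66, from -1.31 to 1.73, with 19 positive, 8 higher and 0 lower with no overlap. No test was made between members with and without the element. Of all tested genes, 12.2% were higher and 15.7% lower with no overlap.

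The targets of ATF4 had the lowest median of the 5 groups of members, 0.49, which was 0.27 without mPGES-1 KO replicate 2. The 4 tested genes were all positive on the log2 scale, but every one had overlapping groups, and edgeR, DESeq2 and limma-voom each called 0, with 0 at an unadjusted p under 0.05. Ppp1r15a encodes GADD34, which returns the phosphatase to eIF2 and ends the response. It measured 237, 287 and 327 CPM in WT and 639, 266 and 282 CPM in mPGES-1 KO, so that replicate 1 alone was above the WT range. The log2 fold change of 0.48 ± 0.39 was -0.04 without that library. Asns, asparagine synthetase, measured 57.1, 39.4 and 74.2 CPM in WT and 58.1, 134 and 69.8 CPM in mPGES-1 KO, where replicate 2 alone was above the WT range (0.62 ± 0.40, and 0.20 without it). Trib3, a pseudokinase that restrains ATF4 and CHOP, measured 42.6, 11.1 and 19.1 CPM in WT and 11.9, 49.2 and 15.2 CPM in mPGES-1 KO, with 1 high library in each group (0.07 ± 0.70, but 0.80 without WT replicate 1 and -0.80 without mPGES-1 KO replicate 2). Sesn2, sestrin 2, measured 2.07, 21.96 and 20.6 CPM in WT and 8.78, 25.7 and 28.7 CPM in mPGES-1 KO, lowest in replicate 1 of both groups (0.50 ± 0.85, and 0.0086 without WT replicate 1). Chac1, which degrades glutathione, had 7, 52 and 3 counts in WT and 1, 30 and 0 counts in mPGES-1 KO and was not tested. The last of these is a count of 0, which allows up to 3 counts or 0.0850 CPM.

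Compared per length, the members spanned a wide range of levels. Below Xbp1 came Pdia3, Hspa5, Pdia6, Calr and Hsp90b1, at 185.5, 181.6, 151.3, 118.4 and 105.1 CPM per kilobase of exon in WT and 433.6, 415.3, 164.7, 246.9 and 195.1 in mPGES-1 KO. The neighbours Pdia3 and Hspa5 overlapped in their libraries. At the other end lay the sensors Atf6, Eif2ak3 and Ern1, at 2.38, 1.46 and 1.18 CPM per kilobase in WT, then Hyou1 at 0.557 and Chac1 at 0.316. The 3 sensors thus lay far below BiP per length in both groups. Exonic bases are the union of all annotated exons of a gene, which need not be the set behind the deposited counts.

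The rest of the pathway was split between the signs. Of 157 further genes listed by role, 156 were in the table and 154 were tested: 74 were positive and 80 negative, with a median of -0.02. edgeR called 3 higher and 0 lower, against 17 and 15 at an unadjusted p under 0.05. DESeq2 called 10 higher and 6 lower, and limma-voom 12 higher and 11 lower. All of these counts are read against the shares of all genes given above. By edgeR these were 1.20% called higher and 2.76% called in either direction. They were 8.56% and 10.5% at the unadjusted p, 6.02% and 6.63% by DESeq2, and 5.91% and 5.85% by limma-voom. The median was -0.39 for 12 genes of N-glycosylation (3 positive), -0.40 for 24 other folding enzymes (7 positive), -0.07 for 24 other degradation genes (11 positive) and -0.27 for 17 other sensors and ER stress factors (8 positive). It was 0.15 for 17 genes of translocation into the ER (10 positive), 0.02 for 13 genes of the eIF2 kinases, eIF2 and eIF2B (7 positive), 0.30 for 33 other partners and targets of ATF4 and CHOP (20 positive) and 0.07 for 14 cytosolic aminoacyl-tRNA synthetases (8 positive). All 3 edgeR calls fell in the group of ATF4 and CHOP partners and targets. As 3 calls among 154 genes are near the edgeR shares, they are not a result about the pathway. Their placing in 1 group was not tested.

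**Figure D4:**
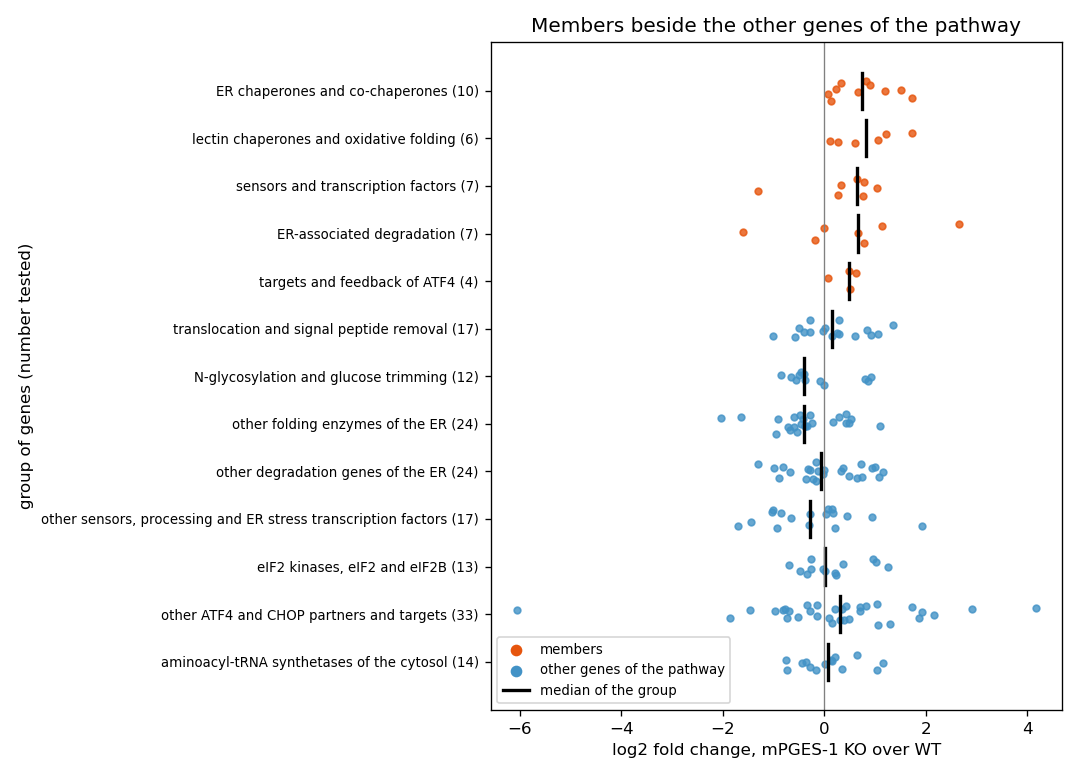
Log2 fold change (horizontal axis, mPGES-1 KO over WT) of each tested gene in the 5 groups of members and the 8 groups of other pathway genes (rows, with the number tested), 1 point per gene and a bar at the median. The medians of the 5 member groups lie between 0.49 and 0.83, and those of the other groups between -0.40 and 0.30.

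Atf3, a stress-induced factor downstream of ATF4 that also responds to cytokines and growth factors, had the largest difference of the 3. It measured 666, 301 and 628 CPM in WT and 3688, 4113 and 4282 CPM in mPGES-1 KO, rising by 2.92 ± 0.38 on the log2 scale (adjusted p = 0.0177). The mPGES-1 KO libraries were close together and far above all WT libraries. Leaving out WT replicate 2 (0.0587), mPGES-1 KO replicate 2 (0.0881) or its replicate 3 (0.0677) ended the call. Sqstm1, the autophagy receptor p62, measured 671, 523 and 472 CPM in WT and 2253, 1649 and 1625 CPM in mPGES-1 KO, rising by 1.73 ± 0.29 (0.0296). Vegfa, the angiogenic factor, measured 32.2, 43.3 and 44.1 CPM in WT and 129.6, 118 and 289.9 CPM in mPGES-1 KO, rising by 2.17 ± 0.40 (0.0383), with replicate 3 well above the rest. Both were apart between the groups, but the Sqstm1 call was lost without any 1 library other than WT replicate 1 (0.0644 to 0.129), and the Vegfa call without any 1 library (0.0629 to 0.136). Atf3, Sqstm1 and Vegfa each have inputs besides ATF4, and those were not separated here.

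The genes next in order of p did not pass in edgeR. Bax, a pro-apoptotic protein of the mitochondrial membrane, measured 236, 353 and 288 CPM in WT and 67.5, 138 and 116 CPM in mPGES-1 KO, apart and lower, with a log2 fold change of -1.45 ± 0.33 (adjusted p = 0.0667). Sec63, the translocon partner of BiP, measured 83.7, 51.4 and 42.9 CPM in WT and 138, 176 and 139.9 CPM in mPGES-1 KO, 1.35 ± 0.32 (0.0721). Vldlr, a lipoprotein receptor known as a target of ATF4, measured 11.4, 9.43 and 19.7 CPM in WT and 69.3, 35.7 and 42.8 CPM in mPGES-1 KO, 1.87 ± 0.44 (0.0728). All 3 had groups that did not overlap, and DESeq2 and limma-voom called each of them.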

How the data were processed

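The 6 RNA-seq libraries are 3 labelled WT and 3 mPGES-1 KO. Per the labels' protocols, cDNA from sorted cells was amplified by 16 PCR cycles with a template-switching kit and read singly for 75 cycles, without strand or molecular identifiers. The authors deposited 1 table of unnormalized read counts, with 1 row per gene symbol. FastQC 0.11.5, STAR and the build mm10 are named per the submitters' processing notes. The sources used here give neither the counting program nor its annotation.

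The test was edgeR 4.0.16 in R 4.3.3 (filterByExpr, TMM, robust quasi-likelihood fit, two-sided, no covariate), with Benjamini-Hochberg adjustment over 16543 genes and a call at an adjusted p under 0.05. SE is the absolute log2 fold change over the square root of F. The procedure was also run on counts simulated from its own fitted dispersions, which checks the code and not the fit to these data. Alternatives were DESeq2 size factors, total counts as scale, no filter, a filter of 1 CPM in 3 libraries, DESeq2 1.42.0 (Wald test), limma-voom with quality weights (limma 3.58.1), a block for the replicate number, leaving out each library, and an adjusted p under 0.1.

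The members and lists were chosen with earlier results of these data known, so no list was tested. Named were all 35 members, the called genes of the other pathway genes filled up to 6 by smallest p, leading markers and Ptges. Jchain leads the plasma cell list. Further markers were named where a gene made up most of a list's sum or differed from it. Positions are from GENCODE M21 on GRCm38, in which 35 members were matched, 12 of them sharing exonic bases with another gene, most of all Hsp90b1. Ddit3 has 2 annotated loci under its symbol, and bases shared between loci of the same symbol were not counted. How the deposited counts treat these loci is not known. Promoters of Hyou1, Hspa13, Manf, Atf6 and Derl1 are not shown.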

Additional observations from a re-analysis of the deposited data

How the results depend on the processing

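Over 13 alternatives to the fit, 25 of the 34 tested members kept the sign of their log2 fold change and 9 did not. The members' median, 0.64, stayed between 0.58 and 0.74. Counts of calls moved far more. Over all genes, 456 calls became 2093 with DESeq2, 1944 with limma-voom and 1113 at an adjusted p under 0.1, and 0 to 568 with 1 library left out (0 without mPGES-1 KO replicate 2 or 3, 1 without WT replicate 2). Among the members, 1 call became 8 with DESeq2, 8 with limma-voom, 2 with the filter of 1 CPM, 4 at an adjusted p under 0.1, and 0 to 3 with 1 library left out, with 3 only without WT replicate 1. Among the other pathway genes, 3 calls became 16 with DESeq2, 23 with limma-voom and 10 at an adjusted p under 0.1, and 0 to 6 with 1 library left out. With the replicate number as a block, the calls were 0 over all genes, 0 among the members (8 at an unadjusted p under 0.05) and 0 among the other pathway genes. No pairing by the shared numbers was seen over all genes. Same-numbered WT and mPGES-1 KO libraries had deviations from their group means that correlated at -0.08, 0.03 and -0.00052 over 16543 genes. Only WT replicate 2 correlated best with its own number. The largest correlation, 0.08, was between WT replicate 3 and mPGES-1 KO replicate 1. With 3 libraries per group these values cannot exclude a smaller effect that same-numbered libraries share. Signs turned with limma-voom for Sdf2l1 (-0.23), Creld2 (-0.25) and Derl2 (-0.050), with total counts as the scale for Derl2 (-0.033) and with the replicate block for Trib3 (-0.057). With 1 library left out, the ranges that crossed 0 were -0.029 to 0.54 for Sdf2l1, -0.34 to 0.37 for Manf, -0.33 to 0.35 for Creld2, -0.13 to 0.27 for Pdia6, -0.026 to 1.13 for Ern1, -0.032 to 1.33 for Atf6, -0.037 to 0.10 for Derl2, -0.80 to 0.80 for Trib3 and -0.044 to 0.74 for Ppp1r15a. The cause was not tested. The median of all genes lay between -0.12 and 0.02 over these settings.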

Other observations

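The KDEL receptors carry escaped ER chaperones such as BiP, GRP94 and calreticulin back from the Golgi. Their 3 genes were picked out after their values were seen. Kdelr3 measured 248, 149 and 252 CPM in WT replicates 1 to 3 and 107, 38.8 and 62.9 CPM in the mPGES-1 KO libraries in that order, a log2 fold change of -1.64 ± 0.42 (SE, edgeR adjusted p = 0.0867). Kdelr1 measured 170.3, 88.7 and 121 CPM in WT and 68.2, 67.9 and 66.4 CPM in mPGES-1 KO (-0.91 ± 0.30, adjusted p = 0.146), and Kdelr2 measured 146, 120.2 and 188 CPM in WT and 105, 94.9 and 101 CPM in mPGES-1 KO (-0.59 ± 0.26, adjusted p = 0.263). In all 3 every mPGES-1 KO library was below every WT library, as was found for 15.7% of all tested genes, and none passed in edgeR. Kdelr3 passed in DESeq2 and limma-voom, the other two in neither, and the sign was the same over 13 alternatives for each. Their group, 24 other folding enzymes of the ER, had 11 genes lower and 2 higher with no overlap.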
